A study of Mus musculus with 17 samples.

Results

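The comparison described here took dietary fat at either intake: the average of the means of mice fed a high-fat diet without limit (HFD, 6 arrays) and mice fed the same diet in a restricted amount (HFD_CR, 5 arrays), minus the mean of mice fed a low-fat diet (LFD, 6 arrays). All 17 of the 17 arrays of the study entered it, and it was made for 22180 genes. The mice were male C57BL/6J animals, and each array held RNA of the periprostatic fat, the fat pad around the prostate, of 1 mouse. LFD mice ate a diet with 10% of its calories as fat, and the other groups a diet with 60%, from 6 weeks of age. After 12 weeks the HFD_CR mice were given 70% of what the HFD mice ate, a 30% restriction, for 7 weeks, while the LFD and HFD mice ate freely throughout, and all mice were 25 weeks old at harvest. Every high-fat mouse, restricted or not, had therefore eaten the high-fat diet freely for 12 weeks, and no mouse was restricted on the low-fat diet. Diet composition at harvest, earlier free feeding on high fat and its lasting effects cannot be told apart in this design.

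White fat turns surplus sugar into fatty acids by de novo lipogenesis: citrate leaves the mitochondrion, is cut to acetyl-CoA and is built up by acetyl-CoA carboxylase and fatty acid synthase, a route that insulin and carbohydrate favour and that dietary fat is known to lower. In obesity, fat cells enlarge, the imprinted gene Mest often rises, and macrophages that take up lipid gather around fat cells. Because an average can be carried by 1 of its groups, each gene was read in 3 ways: the average difference, a call at either intake that needs HFD and HFD_CR each to differ from LFD in the same direction, and the difference between HFD_CR and HFD.

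The defining adipocyte markers were bright in every group. Plin1, the coat protein of the fat droplet, had group means of 13.0, 12.6 and 12.9 log2 units in LFD, HFD and HFD_CR, and Fabp4, a fatty acid carrier, 14.0, 14.0 and 14.1, against array medians of 7.03 to 7.15. Pairs of arrays of 1 group correlated at 0.978 to 0.9971. Several arrays held transcripts of neighbouring tissue. The mean of a list of 18 skeletal muscle genes, centred on the mean of all arrays, reached 2.75 (LFD mouse 2), 1.61 (HFD_CR mouse 2) and 1.55 (LFD mouse 3). The highest arrays for accessory gland genes were LFD mouse 3 (1.78) and HFD mouse 3 (1.13). The male germ cell list was highest in HFD_CR mouse 1 (1.72), and the thermogenic adipocyte list in LFD mice 3 and 6 (1.46 and 1.17). Muscle or gland transcripts were highest in LFD mice 2 and 3, HFD mouse 3 and HFD_CR mouse 2. They are called below the 4 arrays with muscle or gland transcripts. HFD mouse 6 (0.492) and LFD mouse 5 (0.274) also stood above the remaining arrays for muscle genes, but were kept. Counts of list members are also given without LFD mice 3 and 6, or without those 4 arrays, where that moved a count above 1 over 1.5-fold.

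High-fat feeding shifted 4781 genes on the average (21.6% of genes tested, limma, Benjamini-Hochberg adjusted p under 0.05), of which 2969 were higher (13.4%) and 1812 lower (8.17%). Far fewer, 1035 genes (4.67%), differed from LFD at either intake, with 648 higher (2.92%) and 387 lower (1.74%). Both differences in that call share the same 6 LFD mice. The background for the list counts below is the share of all genes. It is 13.4% higher and 8.17% lower on the average, and 2.92% and 1.74% at either intake. The remaining 3746 average calls (16.9%) did not pass at either intake. Of these, 3195 were called in HFD minus LFD (27.8% of all genes were), 697 in HFD_CR minus LFD (9.08% of all genes) and 178 in neither. Among the genes called on the average only, the median size was 0.301 log2 units in HFD minus LFD and 0.154 in HFD_CR minus LFD. Among those called at either intake it was 0.52 and 0.373.

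The high-fat groups were not alike for the genes that moved most. Of the 1035 genes called at either intake, 392 (37.9%) also differed between HFD_CR and HFD (19% of all genes did), and for 798 (77.1%, against 90.7% of all genes) the 95% interval of that difference lay within a 1.5-fold change either way. A total of 117 genes were called at either intake with an average difference of at least 2-fold, 90 higher and 27 lower. Restricted and free-feeding mice differed in 71 of the 90 that rose (78.9%) and in 11 of the 27 that fell (40.7%), and in each of these 82 genes HFD_CR lay nearer to LFD than HFD did. For 20 of the 117 genes (17.1%) the interval stayed within 1.5-fold. All 11 high-fat mice lay on 1 side of all LFD mice for 607 of the 1035 genes (58.6%), against 3.26% of all genes. The genes were called from these same values, so a larger share follows from the call and is no separate support. The number of calls at either intake fell to 396 higher and 244 lower without HFD_CR mouse 1, and to 407 higher and 232 lower without LFD mice 3 and 6. The average difference of each of the 1035 genes kept its direction with any 1 array left out, which the call itself makes likely. Without HFD_CR mouse 1, 61.2% of the 1035 kept their call.

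**Figure D1:**
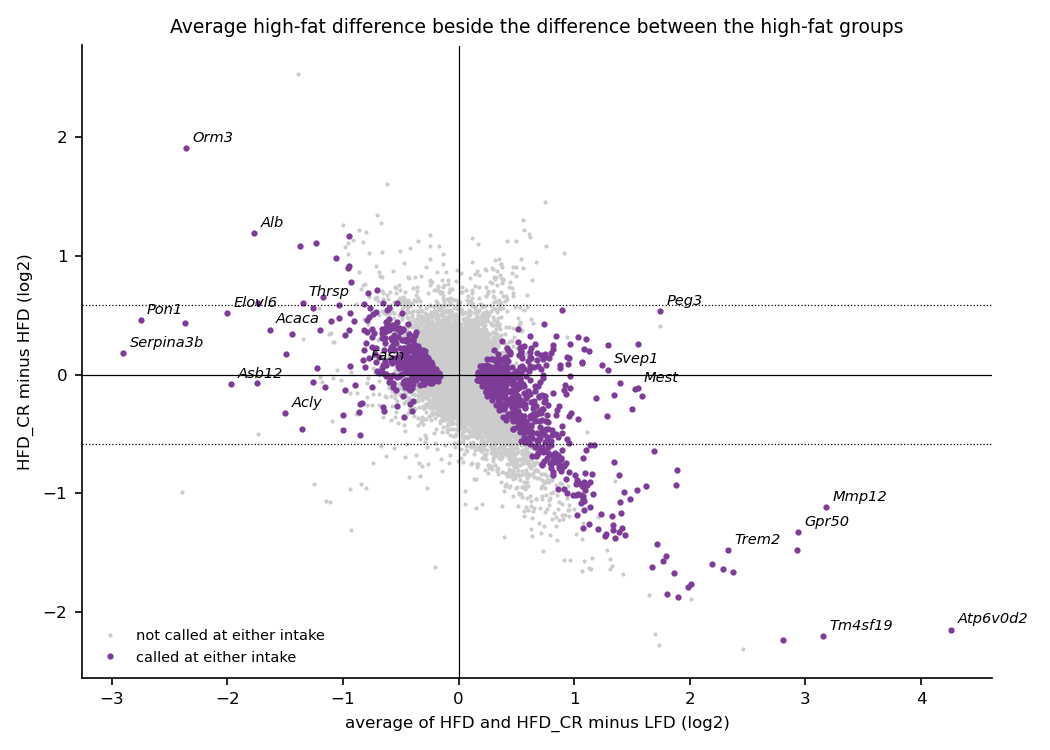
The x axis gives the average of HFD and HFD_CR minus LFD and the y axis HFD_CR minus HFD, both in log2 units, with 1 point per gene and dotted lines at a 1.5-fold difference. Genes of fatty acid synthesis such as Fasn and Acaca, and Mest and Svep1, lie between the dotted lines, while Atp6v0d2 and Trem2 lie at the lower right, high in both high-fat groups and higher in HFD. Genes near x = 0 cannot pass the call at either intake.

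Genes of fatty acid synthesis were lower at either intake. All 18 measured genes of the de novo lipogenesis list fell on the average, and 15 of the 18 fell at either intake, with list medians of -0.82 on the average, -0.87 in HFD minus LFD and -0.77 in HFD_CR minus LFD (all genes: 0.0021, -0.0032 and -0.00045). The list mean of every one of the 11 high-fat mice, at most -0.163 after centring, lay below that of every LFD mouse, at least 0.0781. The 3 genes that fell on the average only were Scd1, Insig1 and Pgd, the last 2 named after their values were seen. They were not alike in which group carried the average. The oleate-making desaturase Scd1 differed from LFD by -0.16 in HFD and -0.04 in HFD_CR, while Insig1, a brake on sterol synthesis, differed by -0.28 and -0.60, and Pgd, which makes NADPH, by -0.09 and -0.35. Scd1 lay between 14.0 and 14.2 in every mouse, near the top of the array's range, where a signal near saturation can compress differences. After quantile normalization its average difference was -0.0156 and did not pass (limma adjusted p = 0.751), and 17 of the 18 genes fell on the average. The average call of Pgd was lost without LFD mouse 3 or 4 (adjusted p = 0.0579 and 0.0602), and that of Insig1 without LFD mice 3 and 6 (adjusted p = 0.0583). Without LFD mice 3 and 6, 11 of the 18 fell at either intake, and with the 4 arrays that held muscle or gland transcripts left out 15 did.

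Elovl6, which lengthens the palmitate made by fatty acid synthase, had the largest fall of the list. Its level ran from 11.0 to 12.9 in LFD mice (median 12.1) and from 9.71 to 9.87 in HFD mice (median 9.76), and was 10.1, 9.98, 10.8, 10.1 and 10.5 in the 5 HFD_CR mice. Every high-fat mouse lay below every LFD mouse. The average difference was -2.00 ± 0.19 log2 units (SE, adjusted p = 1.1e-06), made up of -2.26 in HFD and -1.74 in HFD_CR. The HFD_CR minus HFD difference of 0.52 had a 95% interval of 0.03 to 1.00 and did not pass after adjustment over all genes (adjusted p = 0.14).

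Acaca, the acetyl-CoA carboxylase that commits carbon to fatty acids, stood at 11.6 to 12.6 in LFD mice (median 12.4), at 10.4 to 10.6 in HFD mice (median 10.5) and at 10.6, 10.8, 11.2, 10.8 and 10.9 in HFD_CR mice, again without overlap between LFD and high-fat mice. Its average difference was -1.63 ± 0.12 (SE, adjusted p = 1.2e-07). Acly, the ATP citrate lyase that supplies cytosolic acetyl-CoA, showed the opposite order of the high-fat groups: 12.0 to 13.0 in LFD mice (median 12.7), 11.1 to 11.4 in HFD mice (median 11.3) and 11.0, 11.0, 11.0, 10.9 and 10.9 in HFD_CR mice. All 5 HFD_CR values lay below all 6 HFD values, although the difference of -0.32 between those groups did not pass over all genes (adjusted p = 0.098). Acly differed from LFD by -1.498 ± 0.11 on the average (SE, adjusted p = 1.1e-07).

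Fasn, the fatty acid synthase itself, fell by 0.81 ± 0.07 on the log2 scale (SE, adjusted p = 2.1e-07), by nearly the same amount in both groups. Its LFD levels ran from 13.5 to 14.0 (median 13.9), its HFD levels from 12.9 to 13.1 (median 13.0), and its HFD_CR levels were 13.0, 13.1, 13.3, 13.0 and 13.1. No high-fat mouse reached the LFD range. HFD_CR minus HFD was 0.07, with a 95% interval of -0.10 to 0.23, so a difference beyond 1.5-fold between the intakes lay outside the interval. Aacs, which activates ketone bodies for lipid synthesis, differed from LFD by -1.49 (adjusted p = 4.5e-07). Thrsp, a lipogenic nuclear protein, fell by 1.35 on the average (adjusted p = 9.4e-08) and, unlike Elovl6, Acaca, Acly, Fasn and Aacs, passed between the intakes: HFD_CR lay 0.61 above HFD (interval 0.37 to 0.85, adjusted p = 0.00098). Srebf1 and Mlxipl, which encode the sterol- and carbohydrate-responsive transcription factors of this route and were picked out after their values were seen, differed by -0.53 and -0.75 on the average (adjusted p = 0.00024 and 7.6e-05), and both were called at either intake, though not without LFD mice 3 and 6 (adjusted p = 0.0565 and 0.0797).

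The promoters of 4 of these genes are shown because members of a list that moved together need not share promoter letters. Each is the 250 bases before the RefSeq start (GRCm38.p6), 5′ to 3′ on the gene's strand, with matches on either strand to CCAAT, to the GC box GGGCGG, to the E-box CACGTG or to TCACNCCAC, the core of a sterol element, in capitals. They lie at chr11:120824548-120824797 (minus strand, Fasn), chr7:97417551-97417800 (minus strand, Thrsp), chr11:100528001-100528250 (minus strand, Acly) and chr3:129532136-129532385 (plus strand, Elovl6).
Fasn: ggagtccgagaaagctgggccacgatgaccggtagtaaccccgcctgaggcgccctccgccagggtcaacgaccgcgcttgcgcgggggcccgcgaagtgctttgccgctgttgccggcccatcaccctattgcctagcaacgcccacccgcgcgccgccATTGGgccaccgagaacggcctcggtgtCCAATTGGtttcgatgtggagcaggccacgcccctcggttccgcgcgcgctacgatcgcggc
Thrsp: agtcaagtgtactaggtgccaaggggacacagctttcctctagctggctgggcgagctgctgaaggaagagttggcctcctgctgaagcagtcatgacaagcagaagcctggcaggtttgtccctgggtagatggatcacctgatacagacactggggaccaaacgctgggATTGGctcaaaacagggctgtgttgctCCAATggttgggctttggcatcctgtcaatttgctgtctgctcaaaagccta
Acly: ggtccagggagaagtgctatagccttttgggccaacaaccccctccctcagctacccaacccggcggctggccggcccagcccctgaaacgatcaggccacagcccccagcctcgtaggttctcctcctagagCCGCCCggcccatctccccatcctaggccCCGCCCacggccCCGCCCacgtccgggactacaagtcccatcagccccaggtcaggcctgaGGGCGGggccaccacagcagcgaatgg
Elovl6: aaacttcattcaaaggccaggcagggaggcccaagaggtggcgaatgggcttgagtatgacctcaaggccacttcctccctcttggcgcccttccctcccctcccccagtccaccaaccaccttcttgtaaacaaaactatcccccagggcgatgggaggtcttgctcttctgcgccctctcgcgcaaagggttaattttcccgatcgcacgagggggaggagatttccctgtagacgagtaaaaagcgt
The windows of Fasn and Thrsp hold 3 and 2 CCAAT matches, where in Fasn the last pair overlaps on opposite strands, and neither holds a GC box. Acly's holds 4 GC boxes and no CCAAT, and Elovl6's holds no match to any of the 4 motifs. CCAAT occurs in 10 of the 15 lipogenesis genes that fell at either intake (66.7%), in 46.9% of all genes lower at either intake and in 38.7% of the 16990 measured genes with a promoter in the table (33.8% of its 32851 promoters). GC boxes occur in 9 of the 15 (60.0%), in 55.8% of all genes lower and 62.5% of all genes higher at either intake, and in 46.2% of genes and 32.7% of promoters. For CCAAT the share among genes higher at either intake is 35.5%. The E-box occurs in 2 of the 15 (7.83% of genes, 6.02% of promoters) and the sterol element core in 1 (1.22% of genes, 1.05% of promoters). A gene with several listed promoters counts where any of them holds the motif, and these matches describe letters only.

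Enzymes that bring pyruvate into the mitochondrion fell alongside. Of 13 measured genes of that step, 10 fell and 0 rose on the average (limma, the same counts at an unadjusted p under 0.05, against 8.17% and 13.4% of all genes), and 6 fell at either intake (3 without LFD mice 3 and 6), with medians of -0.36, -0.39 and -0.32 on the average, in HFD and in HFD_CR. Pdhb, the beta subunit of pyruvate dehydrogenase, ran from 11.5 to 11.9 in LFD mice (median 11.8) and from 11.0 to 11.1 in HFD mice (median 11.0), and was 10.9, 11.1, 10.9, 11.1 and 11.1 in HFD_CR mice. The high-fat groups overlapped with each other and not with LFD. The average difference was -0.69 ± 0.06 (SE, adjusted p = 8.8e-07), and HFD_CR minus HFD was 0.02 (interval -0.15 to 0.18).

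Pcx, the pyruvate carboxylase that refills citrate for export, behaved alike, at -0.63 ± 0.07 on the average (SE, adjusted p = 2.9e-06) and -0.01 between the intakes (interval -0.18 to 0.16). Its levels were 12.3 to 12.8 in LFD, 11.9 to 12.1 in HFD, and 11.8, 12.0, 12.0, 11.9 and 12.1 in HFD_CR mice, with no high-fat mouse in the LFD range. Pdha1, the alpha subunit of pyruvate dehydrogenase, fell by 0.53. The inner-membrane pyruvate carrier Mpc1 fell by 0.40 and the dehydrogenase's binding subunit Pdhx fell by 0.42, but neither passed at either intake without LFD mice 3 and 6 (adjusted p = 0.0764 and 0.0976). Pdk4, the kinase that shuts pyruvate dehydrogenase off and that fat feeding is known to raise in muscle, differed by 0.20 ± 0.17 (adjusted p = 0.46). Without LFD mice 3 and 6 its difference was 0.467 (adjusted p = 0.0456).

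In the tricarboxylic acid cycle 13 of 17 measured genes fell and 0 rose on the average (limma, 13 and 0 at an unadjusted p under 0.05), and 9 fell at either intake (4 without HFD_CR mouse 1, 2 without LFD mice 3 and 6, 5 without the 4 arrays with muscle or gland transcripts), with a median of -0.24. The sizes were small. Idh3b, a subunit of the isocitrate dehydrogenase, fell by 0.31 on the average and differed by 0.02 between the intakes (interval -0.12 to 0.15). Sdhb, the iron-sulfur subunit of succinate dehydrogenase, fell by 0.37, and was not called at either intake without LFD mice 3 and 6 (adjusted p = 0.0573). In the oxidative phosphorylation list 26 of 41 genes fell and 0 rose on the average (limma, 32 and 1 at an unadjusted p under 0.05, and 14 fell without LFD mice 3 and 6), with a median of -0.18, but only 5 fell at either intake, a count that was 1 without HFD_CR mouse 1 or without LFD mice 3 and 6, 12 without LFD mouse 2 and 2 or 3 without most other arrays. Ndufa10, a subunit of complex I, fell by 0.43 (adjusted p = 5.1e-05) and passed at either intake.

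Branched-chain amino acid breakdown, which feeds carbon into lipogenesis in fat cells, fell on the average in all 22 measured genes, and at either intake in 9. This second count was 4 without HFD_CR mouse 1 or the 4 arrays with muscle or gland transcripts, 5 without LFD mouse 3, 4 or 6, and 2 without LFD mice 3 and 6. Here the groups differed: the median was -0.48 in HFD and -0.22 in HFD_CR, and 15 of the 22 genes were higher in HFD_CR than in HFD (7.69% of all genes were). Pccb, a subunit of propionyl-CoA carboxylase, showed this order. It ran from 11.0 to 11.2 in LFD mice and from 10.2 to 10.6 in HFD mice, and was 10.6, 10.8, 10.7, 10.7 and 10.8 in HFD_CR mice, all below the LFD range. It differed from LFD by -0.64 in HFD and -0.35 in HFD_CR, and HFD_CR minus HFD was 0.29 (adjusted p = 0.0051).

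In triglyceride synthesis and lipid uptake 10 of 22 measured genes fell and 4 rose on the average, and 3 fell at either intake, with a median of -0.12. In polyunsaturated fatty acid desaturation and elongation 8 of 18 fell (5 without LFD mouse 3, 2 without LFD mice 3 and 6) and 2 rose on the average. Of all genes 8.17% fell and 13.4% rose on the average, and in both lists the share that rose is near the latter. Mogat1, a monoacylglycerol acyltransferase, fell by 1.10 ± 0.08 on the average (SE, adjusted p = 1.3e-07), with -1.33 in HFD and -0.88 in HFD_CR. Gpam and Agpat2, early acyltransferases of triglyceride synthesis, differed by -0.53 and -0.31 with intake differences of -0.02 and -0.01. Fads1, a desaturase of polyunsaturated fatty acids, fell by 0.65. Angptl4, a secreted inhibitor of lipoprotein lipase, rose by 0.62 on the average and missed the call at either intake (adjusted p = 0.11). G0s2, an inhibitor of the main triglyceride lipase, fell by 0.48 and was lower still in HFD_CR (-0.18 against HFD, adjusted p = 0.046). Cpt1a, which admits fatty acids to mitochondrial oxidation, rose at either intake.

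Cpt1a ran from 10.8 to 11.0 in LFD mice (median 11.0) and from 11.6 to 11.8 in HFD mice (median 11.7), and was 11.6, 11.4, 11.5, 11.4 and 11.3 in HFD_CR mice, all above LFD. It rose by 0.63 ± 0.04 on the average (SE, adjusted p = 9.4e-08). Of the 29 measured genes of fatty acid oxidation and ketogenesis it was the only one that rose on the average (2 rose without HFD_CR mouse 3 or LFD mouse 2, and at an unadjusted p under 0.05), while 9 fell. Slc2a4, the insulin-responsive glucose transporter, fell by 0.79 on the average, with -1.13 in HFD and -0.44 in HFD_CR, and without LFD mice 3 and 6 did not pass at either intake (adjusted p = 0.0664). Pik3r1, the regulatory subunit of the insulin-activated lipid kinase, fell by 0.65 and passed at either intake. Its list did not fall as a whole. Of 20 measured insulin signalling genes 5 rose (as few as 2 with 1 array left out) and 5 fell on the average, against 13.4% and 8.17% of all genes. The list median was 0.03, and 1 rose and 1 fell at either intake. Ppp1r3b, which directs a phosphatase to glycogen, differed by -1.26 ± 0.24 (SE, adjusted p = 0.00079) with -0.06 between the intakes (interval -0.66 to 0.53), although the LFD levels of 8.03 to 10.2 reached into the HFD range of 7.52 to 8.10.

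Among genes tied to fat expansion a few rose by similar amounts with or without restriction. Of the 21 measured genes in the list of expansion, imprinted and secreted Wnt genes, 7 rose and 2 fell (1 without LFD mouse 6) on the average and 4 rose and 1 fell at either intake, with a median of 0.16. Of all genes 13.4% rose and 8.17% fell on the average, and the share of the list that fell is near the latter. Mest, an imprinted gene whose level goes with fat cell enlargement, ran from 10.2 to 12.0 in LFD mice (median 11.6) and from 13.0 to 13.1 in HFD mice (median 13.0), and was 13.0, 12.9, 12.9, 13.1 and 12.8 in HFD_CR mice. All high-fat mice lay above all LFD mice, and the high-fat groups overlapped. The average difference was 1.55 ± 0.18 (SE, adjusted p = 7.1e-06) and HFD_CR minus HFD was -0.11 (interval -0.57 to 0.34). The lowest LFD value was that of mouse 3, and the call held without it.

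Peg3, an imprinted zinc finger gene, was highest under restriction: 8.51 to 10.2 in LFD mice (median 9.44), 10.6 to 11.0 in HFD mice (median 10.9) and 11.2, 11.3, 11.3, 11.7 and 11.5 in HFD_CR mice, with no overlap among the 3 groups. It rose by 1.74 ± 0.17 on the average (SE, adjusted p = 1.6e-06), and the 0.54 between the intakes had an adjusted p of 0.083. Bmp3, a secreted member of the bone morphogenetic protein family, kept the same order, with 8.53 to 9.66 in LFD, 9.94 to 10.2 in HFD and 10.3, 10.4, 10.5, 10.4 and 10.6 in HFD_CR mice, and rose by 1.03 ± 0.12. Sfrp1, a secreted Wnt inhibitor, rose by 0.63 on the average, but its call at either intake was lost with HFD_CR mouse 1, 2, 3 or 4, HFD mouse 3 or LFD mouse 1, 4, 5 or 6 left out. Sfrp1 and Dlk1 complete the list's calls at either intake and were picked out after their values were seen. Dlk1, an inhibitor of fat cell differentiation, differed by -0.28 from an LFD mean of 6.7, below the array medians, so its size is uncertain. Sfrp5, a related Wnt inhibitor made by fat cells, rose by 1.75 ± 0.41 on the average and missed the call at either intake (adjusted p = 0.068).

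Svep1, a large secreted matrix adhesion protein, had the nearest-to-equal rise of the genes changed at least 2-fold. LFD mice ran from 9.77 to 10.7 (median 10.2), HFD mice from 11.4 to 11.6 (median 11.5), and the HFD_CR mice stood at 11.7, 11.4, 11.5, 11.5 and 11.7. The high-fat groups overlapped throughout and stayed clear of LFD. The average rise was 1.29 ± 0.10 (SE, adjusted p = 1.2e-07), with 0.04 between the intakes (interval -0.20 to 0.29). Ccn5, a secreted matricellular protein, rose by 1.40 with -0.07 between the intakes (interval -0.44 to 0.30), and Pla2g5, a secreted phospholipase, by 1.24 with 0.08 (interval -0.37 to 0.53). Thbs2, another matricellular protein, rose by 1.503, and Pdgfra, the receptor that marks adipose progenitors, by 0.53. Each of these 5 passed at either intake.

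Matrix genes as a list did not share that evenness. Of 36 measured genes of the extracellular matrix list 25 rose and 1 fell on the average (13.4% and 8.17% of all genes). The medians were 0.63 in HFD and 0.17 in HFD_CR. At either intake 10 rose (2.92% of all genes), a count that was 5 without HFD_CR mouse 1 and 6 without HFD_CR mouse 3 or 4. HFD_CR lay below HFD in 26 of the 36 (11.3% of all genes). Lum, a collagen-binding proteoglycan, rose by 1.99 in HFD and 0.68 in HFD_CR.

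**Figure D2:**
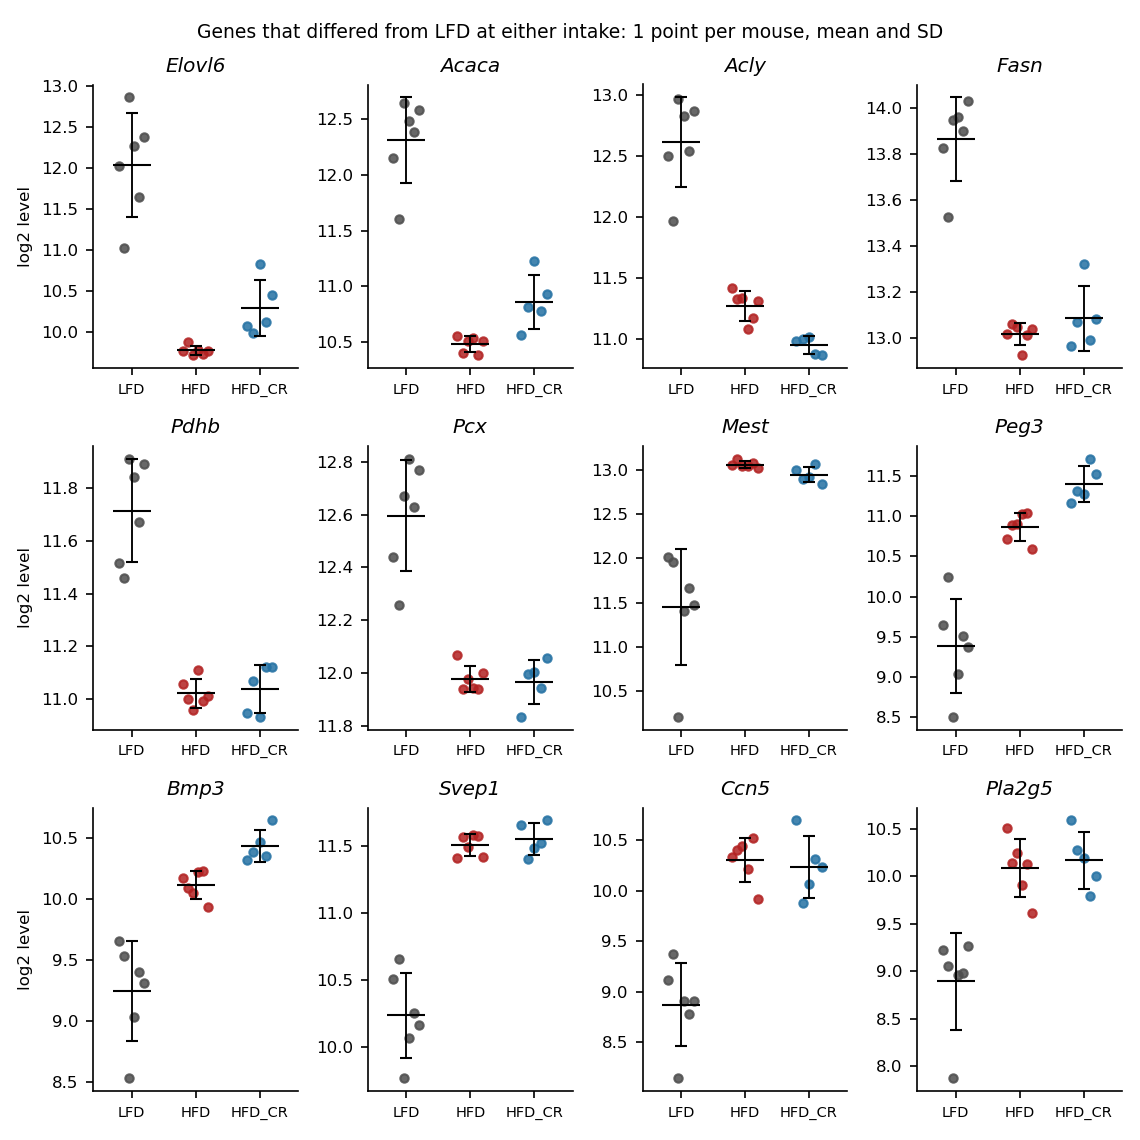
Each panel plots the log2 level of 1 gene, with 1 point per mouse in LFD, HFD and HFD_CR and a line and bar for the mean and SD of 6, 6 and 5 mice; the y axes start at different levels. In all 12 panels no high-fat mouse lies within the LFD range, and in Fasn, Pdhb, Pcx, Mest, Svep1, Ccn5 and Pla2g5 the HFD and HFD_CR points overlap.

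Several genes for secreted plasma proteins and detoxifying enzymes fell furthest. Serpina3b, a serine protease inhibitor, ran from 8.92 to 10.5 in LFD mice (median 9.63) and from 6.14 to 7.76 in HFD mice (median 6.60), and was 6.99, 8.06, 7.31, 5.80 and 6.11 in HFD_CR mice. The high-fat groups overlapped and lay below LFD. The average difference was -2.90 ± 0.30 (SE, adjusted p = 2.4e-06), or -2.40 with each array's median in place of lower signals, and its size is uncertain because the high-fat levels were dim and close paralogs exist. Pon1, a paraoxonase of high-density lipoprotein, went from 8.85 to 10.5 in LFD mice to 6.07 to 7.25 in HFD mice and 6.65, 7.61, 6.98, 7.31 and 7.46 in HFD_CR mice. It fell by 2.75 ± 0.23 (SE, adjusted p = 2.8e-07), with a difference of -2.50 from array medians, and the intake difference of 0.46 had an interval of -0.12 to 1.03.

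Cyp2f2 and Cyp2c55, both cytochrome P450 enzymes, differed by -2.37 and -1.22 on the average, with 0.43 (interval -0.11 to 0.97) and 0.06 (interval -0.28 to 0.39) between the intakes. Of 30 measured genes in the list of paraoxonases, P450 and other oxidases, 7 rose and 11 fell on the average (13.4% and 8.17% of all genes). At either intake 2 rose (1 without most single arrays or without LFD mice 3 and 6) and 7 fell (2.92% and 1.74% of all genes). The 7 that fell at either intake became 4 without HFD_CR mouse 1 or 4 or LFD mouse 4 or 6. They were also 4 without LFD mice 3 and 6, or without the 4 arrays with muscle or gland transcripts. Asb12, a substrate adaptor of ubiquitin ligases, fell by 1.97 ± 0.13 (SE, adjusted p = 4.5e-08), with a difference of -1.69 from array medians, and by nearly the same amount in HFD (-1.93) and HFD_CR (-2.01). Cldn22, a tight junction protein, fell by 1.74 on the average, with -2.04 in HFD and -1.43 in HFD_CR.

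Orm3 and Alb fell less under restriction. Orm3, an orosomucoid with close paralogs that the probes may share, ran from 10.2 to 10.9 in LFD mice (median 10.3), from 6.65 to 7.68 in HFD mice (median 7.17), and stood between them in HFD_CR mice at 9.04, 9.81, 9.32, 8.47 and 8.64. The 3 groups did not overlap. It fell by 2.36 ± 0.18 on the average (SE, adjusted p = 1.2e-07), with 1.91 between the intakes (interval 1.46 to 2.35, adjusted p = 1.2e-05). Alb, albumin, differed by -2.36 in HFD and -1.17 in HFD_CR. Apoc1, an apolipoprotein, differed by -0.70 and -0.80. In the list of 35 measured acute phase and plasma protein genes 5 rose (3 without LFD mouse 4 or 5 or LFD mice 3 and 6, and 2 without the 4 arrays with muscle or gland transcripts) and 7 fell on the average, and 5 fell at either intake. The share that rose is near the 13.4% of all genes, and the list median of -0.0068 is near that of all genes.

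Many of the largest rises belonged to genes of lipid-associated macrophages, and these stayed above LFD under restriction but by less. Of 21 measured genes of the lipid-associated macrophage and lysosome list, 17 rose and 1 fell on the average (13.4% and 8.17% of all genes). At either intake 13 rose and 1 fell (2.92% and 1.74% of all genes). The medians were 0.93 on the average, 1.37 in HFD and 0.50 in HFD_CR, and HFD_CR lay below HFD in 19 of the 21 (11.3% of all genes). In this bulk tissue more cells of a type and more RNA per cell cannot be told apart. Atp6v0d2, a subunit of the vacuolar proton pump, ran from 6.03 to 7.29 in LFD mice (median 6.68), from 11.7 to 12.3 in HFD mice (median 11.9), and was 11.0, 7.75, 9.42, 10.6 and 10.5 in HFD_CR mice. Each HFD_CR mouse lay above all LFD and below all HFD mice, with mouse 2 nearest to LFD. The average rise was 4.26 ± 0.35 (SE, adjusted p = 2.6e-07), or 3.81 with array medians in place of the dim LFD signals, and HFD_CR minus HFD was -2.15 (interval -3.03 to -1.26, adjusted p = 0.0013).

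Trem2, a lipid-sensing receptor of these macrophages, had the same order, with 8.32 to 8.80 in LFD mice, 11.3 to 11.9 in HFD mice and 10.7, 9.01, 9.91, 10.5 and 10.4 in HFD_CR mice. It rose by 2.33 ± 0.18 on the average (SE, adjusted p = 1.5e-07), and HFD_CR lay 1.48 below HFD (adjusted p = 1e-04). Mmp12, macrophage elastase, rose by 3.18, Tm4sf19, a tetraspan membrane protein, by 3.15, and Gpnmb, a glycoprotein of lipid-laden macrophages, by 2.93. In all 3 HFD_CR mouse 2 had the lowest level of its group. Itgad and Itgax, integrin alpha chains of leukocytes, rose by 2.81 and 2.20, Il7r, the interleukin 7 receptor, by 2.37, with 2.23 for Itgad when array medians replaced its dim LFD signals.

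Acp5, a tartrate-resistant acid phosphatase, was the member of the list that fell, by 0.33 (adjusted p = 8.9e-06) with 0.01 between the intakes (interval -0.08 to 0.11), and was picked out after its value was seen. Cd68 and Tyrobp, both among the general macrophage genes called at either intake, rose by 1.43 and 1.07 on the average. In the general macrophage list 11 of 20 rose and 1 fell on the average (13.4% and 8.17% of all genes). The list medians were 0.724 in HFD and 0.215 in HFD_CR. At either intake 6 rose (2.92% of all genes). That count was 3 without HFD_CR mouse 1 or 4 or LFD mouse 6. It was also 3 without LFD mice 3 and 6, or without the 4 arrays with muscle or gland transcripts. Gpr50, an orphan receptor related to the melatonin receptors, stood outside these lists. It rose by 2.94 ± 0.18 (SE, adjusted p = 3.1e-08), from 6.65 to 7.88 in LFD mice to 10.6 to 11.3 in HFD mice and 10.2, 9.17, 9.62, 9.29 and 9.46 in HFD_CR mice, with no overlap among groups.

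Heme oxygenase Hmox1 rose by 1.16, by 1.57 in HFD and 0.74 in HFD_CR, and Gsto1, a glutathione transferase, by 0.51 with -0.11 between the intakes (interval -0.27 to 0.05). Most of its list went the other way: 10 of 18 measured glutathione transferases fell (6 without LFD mouse 6 or LFD mice 3 and 6) and 2 rose (1 without HFD_CR mouse 3 or LFD mouse 1, 4, 5 or 6, without LFD mice 3 and 6, or without the 4 arrays with muscle or gland transcripts) on the average, with medians of -0.30 in HFD and 0.0094 in HFD_CR. Of all genes 8.17% fell and 13.4% rose, and the share of the list that rose is near the latter. Gsta4, which conjugates lipid peroxidation products, differed by -1.55 in HFD and -0.57 in HFD_CR, and lost its call at either intake without HFD_CR mouse 1 or 4, LFD mouse 4 or 6, or LFD mice 3 and 6. Chac1, which breaks down glutathione, rose by 0.63, and Asns, asparagine synthetase, fell by 0.53, both at either intake. The immediate early gene Atf3 rose by 1.68, by 2.49 in HFD and 0.87 in HFD_CR. T cell genes did not follow the macrophage genes: 0 of 11 were called on the average (limma; 0 higher and 3 lower at an unadjusted p under 0.05), with a median of -0.18, and the level of their list was highest in LFD mouse 5.

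**Figure D3:**
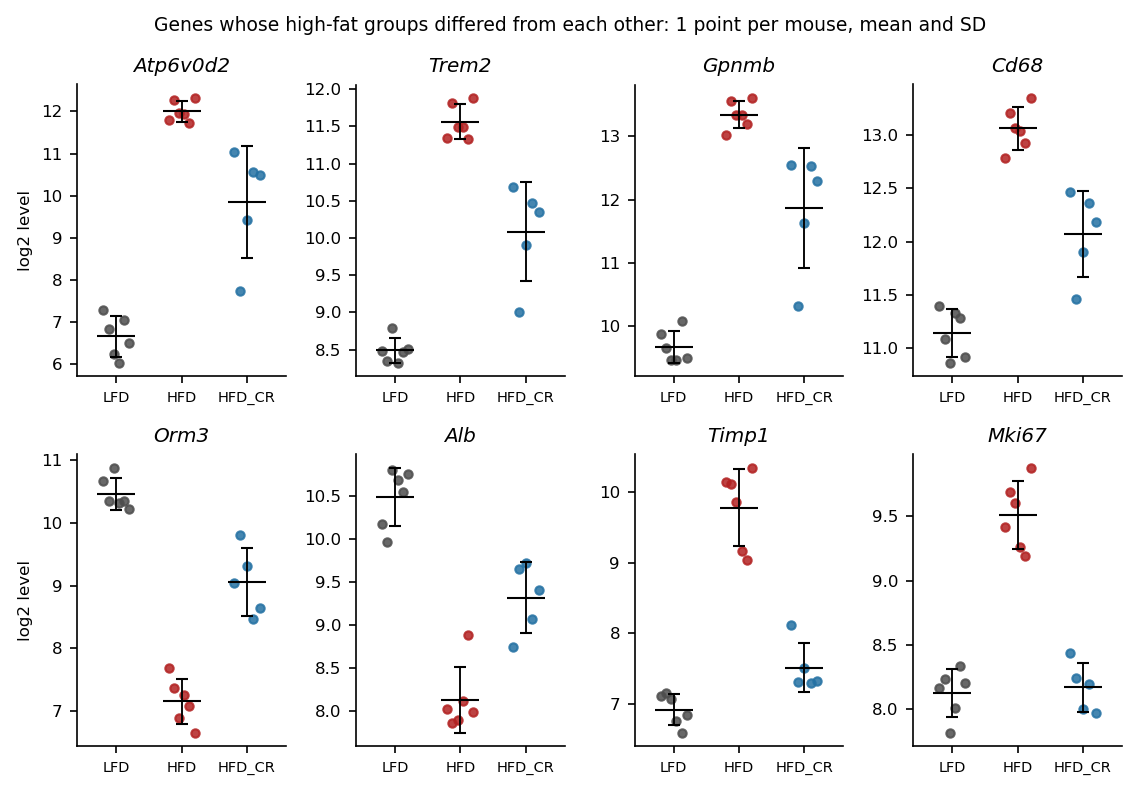
Each panel plots the log2 level of 1 gene, with 1 point per mouse in LFD, HFD and HFD_CR and a line and bar for the mean and SD of 6, 6 and 5 mice; the y axes start at different levels. HFD_CR lies between LFD and HFD for Atp6v0d2, Trem2, Gpnmb, Cd68, Orm3 and Alb, and overlaps with LFD for Mki67. For Timp1 every HFD_CR mouse (7.29 to 8.11) lies above LFD (6.59 to 7.15) and below HFD (9.04 to 10.4). The averages of Mki67 and Timp1 come mostly from HFD.

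Other average differences rested mostly on 1 high-fat group. In the cell cycle list 24 of 26 measured genes rose on the average (13.4% of all genes). At either intake 1 gene, Cdk1, passed, a share near the 4.67% of all genes. The list medians were 0.96 in HFD and 0.10 in HFD_CR. Mki67, a marker of dividing cells, ran from 7.82 to 8.34 in LFD mice and from 9.19 to 9.88 in HFD mice, and was 8.44, 8.24, 8.01, 8.20 and 7.97 in HFD_CR mice. Restricted mice overlapped with LFD mice, and the average of 0.71 (adjusted p = 5.8e-05) was made up of 1.38 and 0.04. Cdk1, the mitotic kinase, stood at 7.35 to 7.65 in LFD, 9.01 to 9.50 in HFD and 8.52, 8.54, 8.52, 8.52 and 8.43 in HFD_CR mice, without overlap, and differed by 1.34 ± 0.07 on the average (SE, adjusted p = 3.1e-09). HFD_CR mice 1, 3 and 4 carry the same deposited value for Cdk1, as 3 or more mice of a group do in 107 of the 22180 genes (0.482%), so the spread behind this SE and p may be too small.

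Timp1, a metalloproteinase inhibitor, differed by 2.87 in HFD and 0.59 in HFD_CR (adjusted p = 0.11), and Ccl2, a monocyte chemokine, by 2.57 and 0.72, with an adjusted p of 0.064 at either intake. Adgre1, the macrophage marker F4/80, differed by 1.31 and 0.32. Leptin, Lep, rose by 0.37 on the average and narrowly missed the call at either intake (adjusted p = 0.057), with 12.9 to 13.5 in LFD mice, 13.7 to 13.8 in HFD mice and 13.7, 13.6, 13.4, 13.6 and 13.6 in HFD_CR mice, of which mouse 3 lay within the LFD range. Adiponectin, Adipoq, differed by -0.11 ± 0.05 on the average (adjusted p = 0.15), by -0.28 in HFD and 0.05 in HFD_CR. Irs1, an insulin receptor substrate, differed by -1.03 and -0.38 and missed at either intake (adjusted p = 0.056).

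Restriction, not free feeding, carried the average for cholesterol synthesis. Of 18 measured genes 12 fell on the average (7 without LFD mice 3 and 6) and 2, Pmvk and Tm7sf2, at either intake (6 without LFD mouse 2, 4 without the 4 arrays with muscle or gland transcripts, and 1 without HFD_CR mouse 1 or 4, HFD mouse 4 or LFD mice 3 and 6), with medians of -0.051 in HFD and -0.44 in HFD_CR. Cyp51, the lanosterol demethylase, ran from 8.39 to 9.64 in LFD mice and from 8.34 to 9.27 in HFD mice, and was 8.26, 7.95, 8.01, 7.79 and 7.77 in HFD_CR mice. HFD overlapped with LFD and all HFD_CR mice lay below both. It differed by -0.33 in HFD (adjusted p = 0.21) and -1.28 in HFD_CR (adjusted p = 0.00036). Fdft1, squalene synthase, had the reverse order, -0.88 and -0.37. Pmvk, phosphomevalonate kinase, differed by -0.60 and -1.11, and Tm7sf2, a sterol reductase, by -0.40 and -0.45. The call of Tm7sf2 at either intake was lost without HFD_CR mouse 1 or 4, HFD mouse 4 or LFD mice 3 and 6. It was also lost without the 4 arrays with muscle or gland transcripts (limma adjusted p = 0.1).

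Clock genes differed more between the intakes than on the average, with HFD_CR above HFD in 11 of 17 and below it in 4 (7.69% and 11.3% of all genes). On the average 2 of 17 were higher (4 without HFD_CR mouse 1 or LFD mouse 2), a share near the 13.4% of all genes. The 5 that were lower (3 without LFD mouse 1, 4 or 5) were a larger share than the 8.17% of all genes. At either intake 0 were called by limma (3 at an unadjusted p under 0.05), against 4.67% of all genes. Arntl, the core activator Bmal1, ran from 9.45 to 9.85 in LFD, from 9.18 to 9.50 in HFD and stood at 8.43, 8.30, 7.52, 8.19 and 7.65 in HFD_CR mice. Its average of -0.93 was made up of -0.28 and -1.58. Dbp, a clock output factor, differed by 0.02 and 1.48. The hour of harvest and of the last meal is not given in the sources used here. In 32 genes (0.144%) HFD and HFD_CR differed from LFD in opposite directions, a count between 16 and 21 without HFD_CR mouse 3, 4 or 5, HFD mouse 3 or LFD mouse 4 or 5. It was 14 without the 4 arrays with muscle or gland transcripts and 5 at an adjusted p under 0.01. With only genes above the median level tested it was 59, and with array weights 73. The average hides such genes. Per3, a clock repressor, differed by -0.45 in HFD and 0.69 in HFD_CR with an average of 0.12, Chrdl1, a secreted antagonist of bone morphogenetic proteins, by -0.41 and 0.45 with 0.02, and Cmklr1, the chemerin receptor, by -0.32 and 0.38 with 0.03. Without the 4 arrays with muscle or gland transcripts the HFD difference of Per3 (adjusted p = 0.0929) and the HFD_CR difference of Cmklr1 (adjusted p = 0.0978) did not pass, nor did that of Per3 without LFD mice 3 and 6 (adjusted p = 0.0893).

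Thermogenic genes fell on the average in 10 of 14 (6 without LFD mice 3 and 6), and at either intake in 3 (0 without HFD_CR mouse 1, 1 without HFD_CR mouse 4, LFD mouse 6 or the 4 arrays with muscle or gland transcripts). These values move with LFD mice 3 and 6, the highest in that list. Ucp1, the uncoupling protein of brown fat, ran from 6.71 to 12.6 in LFD mice (median 9.84), from 6.82 to 9.53 in HFD mice and stood at 6.60, 6.62, 6.17, 7.36 and 8.26 in HFD_CR mice, so that all groups overlapped. Its average difference of -2.39 ± 0.70 (SE, adjusted p = 0.02) became -1.84 with LFD mouse 3 left out, -1.95 with LFD mouse 6 left out and -1.15 with both left out, and none of these passed (adjusted p of 0.056, 0.0631 and 0.2). Cidea, a droplet protein of brown fat, differed by -1.75 on the average with -0.07 between the intakes (interval -0.94 to 0.80), and its call at either intake was lost without HFD_CR mouse 1 (adjusted p = 0.0535).

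**Figure D4:**
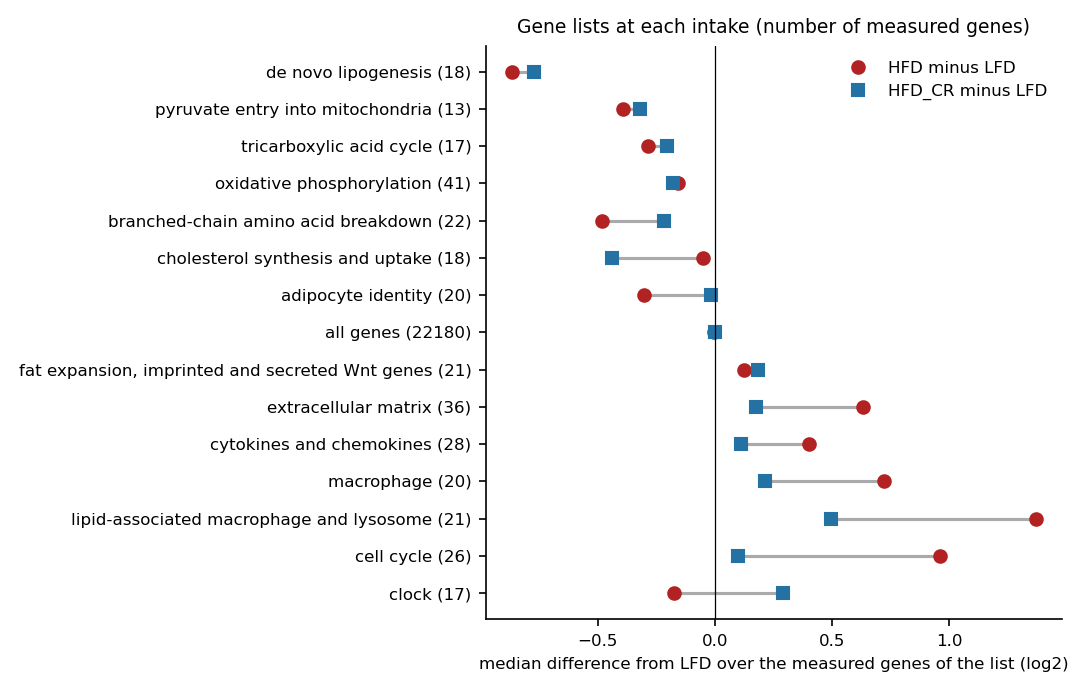
The x axis gives the median log2 difference from LFD over the measured genes of each list, as a circle for HFD and a square for HFD_CR, with the number of genes in brackets. Both symbols lie close together and below 0 for de novo lipogenesis (-0.87 and -0.77) and the pyruvate and tricarboxylic acid lists, and far apart for the macrophage, cell cycle and cholesterol lists; both differences share the LFD mice.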

How the data were processed

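Each array measured 1 mouse, and the labels' protocols name separate animals with RNA integrity above 7. The authors deposited log2 expression for each probe set of the Affymetrix Mouse Gene 2.0 ST array. RMA, limma and R 3.5.0 appear, without role or order, among the tools of the submitters' processing notes. Of 33793 probe sets, 23521 had 1 gene symbol, 1814 several and 8458 none; the brightest of a gene's probe sets was kept, which left 22180 genes, with no filter or rescaling. Annotation can be old, and 1 gene is not reported here.

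A mean per group was fitted over the 17 arrays by lmFit and eBayes of limma 3.58.1 (R 4.3.3; 14 residual degrees of freedom). The call at either intake took the larger p of HFD minus LFD and HFD_CR minus LFD where the signs agreed. All p-values were Benjamini-Hochberg adjusted over all genes and called under 0.05; the fit was tested on simulated data. The number of arrays limits the precision. Named genes were the largest changes, those most alike between intakes and up to 5 called members per list. The comparison, the 42 lists (772 genes measured) and the rule were chosen with earlier results of these data known, so no list was tested. For figures, matplotlib 3.10.9 (Python 3.11.15) was used. In all, 30 alternatives were tried.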

Additional observations from a re-analysis of the deposited data

Results flagged for a closer look

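Within the groups of 5 or 6 mice, 1 mouse lay unusually far from the others in 15 of 282 gene and group sets examined (5.32%), close to the 1 in 20 expected by chance (Dixon's test). Among LFD mice, mouse 3 was low in Mest (10.2, nearest mouse 11.4) and Pla2g5 (7.87, nearest 8.96) and high in Apoc1 (12.1, nearest 11.6), and mouse 2 was low in Cyp2c55 (11.3, nearest 12.1) and Cyp51 (8.39, nearest 9.23). These 2 mice also held muscle or gland transcripts; the part of those in the values was not tested. Among HFD mice, mouse 4 was low in Fasn (12.9) and high in Pdk4 (11.9) and Cmklr1 (9.53), mouse 1 was high in Serpina3b (7.76) and mouse 5 was high in Alb (8.89). Among HFD_CR mice, mouse 1 was low in Pccb (10.6) and high in Timp1 (8.11), mouse 2 was high in Apoc1 (11.1), and mouse 5 was low in Cdk1 (8.43) and high in Chrdl1 (11.2).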

How the results depend on the processing

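Over the 17 settings that each left out 1 array, the average calls ran from 2550 to 3278 higher and from 1508 to 1949 lower, and those at either intake from 396 to 726 higher and from 244 to 518 lower, lowest without HFD_CR mouse 1 and highest without LFD mouse 2. Those on the average only ran from 2049 to 2590 higher and from 1217 to 1518 lower. Of 13 other settings, the 11 that kept the threshold gave 2295 to 3191 higher and 1351 to 2020 lower on the average, 396 to 772 and 232 to 458 at either intake, and 1888 to 2456 and 1119 to 1568 on the average only. At an adjusted p under 0.01 the average gave 1919 higher and 981 lower, either intake 301 and 178, and the average only 803 lower. With a 1.5-fold minimum these were 428 and 161, 264 and 98, and 164 and 63, which raised the share higher on the average from 62.1% to 72.7%. Without LFD mice 3 and 6 either intake gave 407 and 232, and without HFD_CR mouse 1 396 and 244. Both of these settings also hold fewer samples, and the cause of the lower counts was not tested. Mouse numbers did not pair the samples (correlations of -0.108 to 0.409 over 16 same-number pairs), and with the number as a replicate block either intake gave 571 higher and 308 lower. Fabp4, uncalled, turned from -0.02 to 0.0537 after quantile normalization. No other average difference changed sign among the genes named, except that those of Per3, Chrdl1 and Cmklr1, whose average lies near 0, were followed for each intake only; differences between the intakes were not followed.

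The array reads relative levels, and dim genes have uncertain sizes. The LFD mice are the control of both high-fat differences, so 1 unusual LFD mouse moves both. All high-fat mice share 12 weeks of free feeding, and no low-fat mouse was restricted.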

Other observations

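Of 18 measured adipokines and secreted factors 6 rose and 7 fell on the average (13.4% and 8.17% of all genes), and 2, Agt and Rbp4, fell at either intake. Agt, angiotensinogen, ran from 10.1 to 10.6 in LFD mice and from 8.84 to 9.24 in HFD mice, and was 9.91, 10.1, 10.1, 9.63 and 9.91 in HFD_CR mice, so that each group stood apart. It fell by 0.95 ± 0.08 on the average (SE, limma adjusted p = 3e-07), and HFD_CR lay 0.90 above HFD (adjusted p = 8.9e-06). Rbp4, the retinol carrier, fell by 0.38 on the average, with -0.51 in HFD and -0.25 in HFD_CR. Metrnl, a secreted factor of fat and muscle, rose by 0.75 on the average, with 1.17 in HFD and 0.33 in HFD_CR, and missed the call at either intake (adjusted p = 0.087). Among 20 measured genes of adipocyte identity 10 fell and 1 rose on the average (8.17% and 13.4% of all genes), with medians of -0.30 in HFD and -0.018 in HFD_CR. HFD_CR lay above HFD in 16 of the 20 and below it in 1 (7.69% and 11.3% of all genes).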
